A study of Mus musculus with 14 samples.

Results

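Gene expression after carbenoxolone was compared with that after saline in the superficial layers of the superior colliculus of mouse pups. The comparison used every library that the labels place in the superficial layers, 4 given carbenoxolone (cbx) and 3 given saline, which is 7 of the 14 libraries of the series. The other 7 came from the deep layers. All pups were of the outbred ICR/CD-1 strain and were sampled at postnatal day 6. At postnatal day 0 to 1 they had received 0.3 to 0.5 µL of saline or of 50 mM cbx through a glass pipette into the vitreous of the eye, so both groups carry the incision of the eyelid, the anaesthesia on ice and the injection itself. The tissue was microdissected, and each library is a pool of 3 brains. A p-value here therefore rests on the spread between pools and not between pups. In the main test that spread was estimated over all 14 libraries, with the layers of one pool number taken as independent. The drug was given into the eye and the RNA was read in the brain region that the retina projects to.

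The superficial layers of the superior colliculus receive the axons of retinal ganglion cells, which form a map of the visual field there. Before the eyes open, spontaneous waves of activity sweep across the retina and travel along these axons. Carbenoxolone is a derivative of the liquorice compound glycyrrhetinic acid. It blocks gap junctions, the channels made of connexins that couple neighbouring cells, and per the labels it was injected to stop retinal waves. It is also known as an inhibitor of 11-beta-hydroxysteroid dehydrogenases, the enzymes that interconvert active and inactive glucocorticoids.

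The superficial libraries held 32004952 to 39725403 reads counted on genes. Levels are given in CPM, counts scaled to the size of the library with TMM factors, in the order of pool number, and differences as cbx minus saline on the log2 scale with their standard error (SE). The 6 markers of the midbrain, among them Pax7 at 151 to 167 CPM and Tfap2b at 164 to 180 CPM, summed to 691 to 737 CPM and overlapped between the groups. The hindbrain and cerebellar markers Atoh1 and Gabra6 had 0 counts in all 7 libraries, and the 5 photoreceptor markers summed to at most 3.68 CPM. The 5 forebrain markers summed to 12.4 CPM in saline pool 3 and to 3.69 to 5.27 CPM elsewhere, and 3 myelin genes to 243 CPM in saline pool 1 and 68.3 to 95.5 CPM elsewhere. The pools also differed in the sex of their pups. Xist, which marks female cells, was nearly absent from saline pool 1 (1.94 CPM) but not from any other pool (241 to 1127 CPM). The Y-linked Ddx3y was at 70.8, 37.0 and 45.3 CPM after saline and 16.0, 38.6, 17.7 and 0 CPM after cbx. Cbx pools 1, 3 and 4 thus lay below every saline pool in Ddx3y, so sex and treatment are partly mixed. The part of sex in the differences was not tested beyond a fit without saline pool 1 and cbx pool 4. The 4 cbx libraries lay further from one another than the 3 saline libraries did, with cbx pool 1 apart on the first principal component (36.1% of the variance) and cbx pool 4 on the second (30.7%).

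Across the transcriptome, cbx was followed by many small differences and few large ones. Of 20330 genes tested, 880 passed edgeR's quasi-likelihood test at an adjusted p of 0.05 (4.33% of genes), 545 higher (2.68%) and 335 lower (1.65%). Without regard to sign, their median difference was 0.44 on the log2 scale, against 0.17 over all genes tested. Only 112 differed by at least 2-fold and 613 by less than 1.5-fold. The count was lowest with a saline library left out. It was 379 without saline pool 1, 140 without saline pool 2 and 239 without saline pool 3, of which 349, 139 and 231 were among the 880. It was 632, 666, 907 and 824 without cbx pools 1 to 4. With the 7 superficial libraries alone, 142 of 19278 genes tested passed (0.737%), 90 higher and 52 lower. Without saline pool 1 and cbx pool 4, the pools with next to no Xist and no Ddx3y, 91 passed, 69 higher and 22 lower. That fit does not balance sex, since cbx pools 1 and 3 held less Ddx3y than saline pools 2 and 3. The split between directions also moved with the processing. A filter of 1 CPM gave 540 higher and 552 lower genes, and a correction for transcript length and GC content per library gave 552 and 595.

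Because of this, the description below leans on a core of 99 genes (0.487% of genes) whose 7 libraries did not overlap between the groups and which kept their call with each superficial library left out in turn. Of these, 57 were higher (0.28%) and 42 lower (0.207%), and their median size on the log2 scale was 0.59. Groups that do not overlap were common on their own, at 3508 genes (17.3%), 8.96% with cbx higher and 8.29% with cbx lower. Of the 99 genes, 88 also passed with the superficial libraries alone, 55 passed without saline pool 1 and cbx pool 4, and all 99 passed in the limma-voom fit that takes the pool as a block over both layers. These 99 are called core genes in what follows. Of those named below, Anxa5, Fibin, Kcnq5, P2ry13, Pcdh9 and Pou4f2 did not pass with the superficial libraries alone. Without saline pool 1 and cbx pool 4, the calls of A4galt, Acsbg1, Cadm2, Ccnd3, Cdhr1, Emp3, Fibin and Kcnq5 were lost. So were those of Megf11, Ncf1, Pcdh9, Plau, Scd1, Vgf, Xlr3b and 2810459M11Rik. Groups that do not overlap are part of the rule, so where this is described for a core gene it adds no support. Where the values of a called gene outside the core are described, the libraries whose removal lost its call are given, or the number of the 7 fits that kept it. The background for every class count below is the share of all genes called, 2.68% higher and 1.65% lower. It includes genes with a mean under 1 CPM, of which 0.231% were called higher and 0.463% lower. Among protein-coding genes the shares were 3.38% and 1.95%, and they moved with level and transcript length, as given near the end. A class share near these values is no more than its background.

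**Figure D1:**
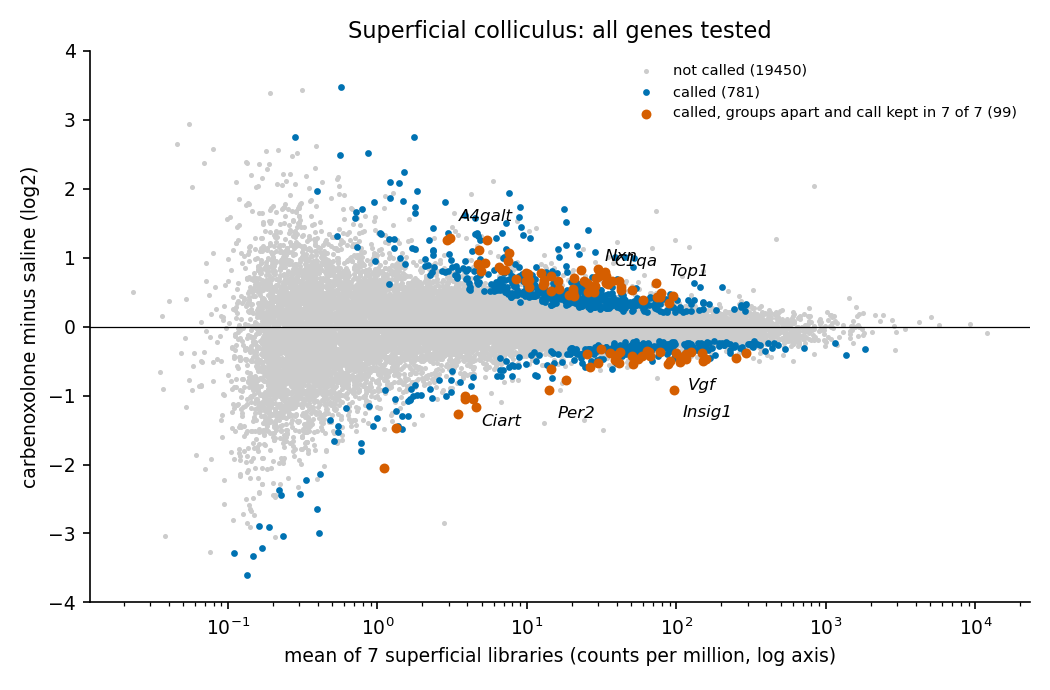
Each point is a gene, with its mean level over the 7 superficial libraries on a log axis and its difference between cbx and saline on the log2 scale. The 99 core genes (orange) lie at moderate levels and mostly within 2-fold, among the 781 other called genes (blue) and the 19450 genes that were not called (grey).

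Every call among the sterol genes after cbx was a fall. A cell senses sterol in the membrane of the endoplasmic reticulum. When sterol is plentiful, INSIG proteins hold the SCAP-SREBP complex there. When it is scarce, SREBP is released, cut and moves to the nucleus, where it turns on the enzymes of cholesterol synthesis and Insig1 itself. In the first weeks after birth the brain makes its own cholesterol for growing membranes and myelin. The clock genes, of which 9 of 21 fell and 0 rose, form a loop in which CLOCK and BMAL1 (Arntl) bind E-boxes, with the core letters CACGTG, to turn on Per, Cry and other genes whose products then repress them.

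Upstream sequence is shown for the 3 core genes Insig1, Ciart and Tef because they carry the largest fall of the sterol group and 2 falls of the clock group, and because the window before each start holds the E-box letters. The windows are the 250 bases before the RefSeq start site in the GRCm38.p6 build, with CACGTG in capitals. Its position is counted in bases from the motif's first base to the start site. CACGTG reads the same on both strands.
Insig1, chr5:28071162-28071411, plus strand: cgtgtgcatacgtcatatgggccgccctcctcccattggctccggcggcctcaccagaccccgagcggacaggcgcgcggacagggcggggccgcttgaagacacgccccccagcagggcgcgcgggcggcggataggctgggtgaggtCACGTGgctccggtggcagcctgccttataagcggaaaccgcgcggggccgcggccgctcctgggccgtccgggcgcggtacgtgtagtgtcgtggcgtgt
Ciart, chr3:95882229-95882478, minus strand: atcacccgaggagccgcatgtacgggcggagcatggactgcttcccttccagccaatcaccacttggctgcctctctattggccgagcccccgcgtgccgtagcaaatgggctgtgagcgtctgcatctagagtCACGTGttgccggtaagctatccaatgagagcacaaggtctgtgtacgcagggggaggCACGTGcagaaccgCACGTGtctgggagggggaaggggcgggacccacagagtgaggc
Tef, first start site, chr15:81802423-81802672, plus strand: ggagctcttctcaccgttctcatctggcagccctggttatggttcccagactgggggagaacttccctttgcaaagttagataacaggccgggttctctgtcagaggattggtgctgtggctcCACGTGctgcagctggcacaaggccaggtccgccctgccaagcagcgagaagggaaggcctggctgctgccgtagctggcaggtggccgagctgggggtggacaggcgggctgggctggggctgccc
Tef, second start site, chr15:81811164-81811413, plus strand: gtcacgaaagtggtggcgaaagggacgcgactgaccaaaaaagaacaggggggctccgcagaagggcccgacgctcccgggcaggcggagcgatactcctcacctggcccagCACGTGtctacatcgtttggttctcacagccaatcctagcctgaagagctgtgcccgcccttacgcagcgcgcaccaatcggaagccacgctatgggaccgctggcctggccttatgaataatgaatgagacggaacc
Ciart held 3 copies, 116, 58 and 44 bases before its start. At least 3 copies occurred in 20 of 32851 RefSeq windows of the same length (0.0609%), and at least 1 copy in 1978 (6.02%). Insig1 held 1 copy at 101 bases, and the Tef windows 1 copy each at 127 and 138 bases. The 3 genes shown were chosen for the motif, so its presence in their windows adds no support. Of the 21 clock genes tested, 17 had a window, and Bhlhe41, Ciart, Cry1, Per1 and Tef held the motif, in 6 of the 25 windows of these 17 genes (24%). Of these, Ciart, Cry1 and Tef were called lower, and Per1 did not pass. Cry2, Arntl and Nr1d2 were called lower too and had windows without the motif. Of the 40 sterol genes of both lists, 29 had a window. The CCAAT box, searched on both strands and known as the site of NF-Y, was present in 23 of their 43 windows (53.5%) and in 14 of the 25 clock windows (56%), against 33.8% of all windows. The motif CACGTG was in 6 of the 43 sterol windows (14%), and the sterol regulatory element, searched on both strands in 1 exact spelling, in 0 of the 43 and 0 of the 25, against 24 of all windows (0.0731%). A match of letters is a description of these windows and not a bound site.

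Insig1 was the gene with the smallest p-value of the comparison. It was at 123, 136 and 136 CPM in saline pools 1 to 3 and at 57.9, 69.2, 79.4 and 70.5 CPM in cbx pools 1 to 4. All 4 cbx pools lay far below all 3 saline pools, with cbx pool 1 the lowest. On the linear scale its mean fell by 47.4%. On the log2 scale Insig1 fell by 0.93 (SE 0.088, adjusted p = 3.93e-05), and by 0.85 to 1.00 with any 1 library left out.

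Of 19 genes of sterol sensing, uptake and efflux, 4 fell and 0 rose. Their median log2 difference was -0.16, against 0.01 over all genes tested. Stard4, a carrier that moves cholesterol between membranes, was at 59.2, 67.5 and 60.7 CPM and 37.6, 42.0, 48.7 and 42.3 CPM. It fell by 0.55 (SE 0.087, adjusted p = 0.00334). Its groups were apart, and again cbx pool 1 was lowest and cbx pool 3 highest of the cbx pools. Abcg1, an exporter of cholesterol that is induced when sterol is plentiful, was at 47.8, 46.0 and 42.5 CPM and 36.8, 35.0, 35.8 and 34.2 CPM. It fell by 0.36 (SE 0.072, adjusted p = 0.0114), a call lost without saline pool 1 or saline pool 2. Srebf2, which encodes the SREBP that drives cholesterol synthesis, differed by -0.09 (SE 0.062, adjusted p = 0.455) and did not pass.

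Of 21 enzymes of sterol synthesis, 7 fell and 0 rose, with a median of -0.20 (-0.25 to -0.18 with 1 library left out), and 18 of the 21 differences were negative. The count was 3 without saline pool 2, 4 without saline pool 3 and 3 to 9 over the 7 fits. With the superficial libraries alone it was 3, and without saline pool 1 and cbx pool 4 also 3. Lss, which closes the sterol ring system, went from 108, 108 and 102 CPM to 60.1, 69.2, 84.6 and 77.7 CPM and fell by 0.54 (SE 0.087, adjusted p = 0.00334). Its groups did not overlap, and cbx pool 1 was lowest and cbx pool 3 highest among the cbx pools. Lss is a core gene. Msmo1, a demethylating oxidase of the later pathway, was at 112, 114 and 117 CPM and 99.3, 83.3, 89.8 and 69.8 CPM and fell by 0.42 (SE 0.088, adjusted p = 0.0121), with cbx pool 4 lowest here. Its call was lost without saline pool 2 or 3. Fdps, Idi1 and Mvd, enzymes that make isoprenoid units before the sterol branch, fell by 0.86, 0.50 and 0.31, and kept their calls in 5, 3 and 4 of 7 fits.

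Fatty acid genes divided by direction. Of 19 genes of fatty acid synthesis and desaturation, 2 fell and 0 rose, and 17 of the 19 differences were negative. The count was 1 without saline pool 1 or 2. Both that fell are desaturases, which introduce a double bond into saturated acyl chains. Scd1 was at 196, 180.3 and 165 CPM and 118, 129, 138 and 127 CPM, with no overlap, and fell by 0.49 (SE 0.076, adjusted p = 0.00281). Scd2, the main form in the young brain, was at 2226, 2032 and 1950 CPM and 1517, 1723, 1764 and 1598 CPM and fell by 0.33 (SE 0.073, adjusted p = 0.0172), a call lost without saline pool 1 or 2. Acsbg1, which activates long-chain fatty acids and lies in no list, went from 178, 173 and 166 CPM to 119, 128, 144 and 137 CPM and fell by 0.38 (SE 0.069, adjusted p = 0.00561) as a core gene. Of 19 genes of fatty acid oxidation, 5 rose and 1 fell. The 6 calls became 2 without saline pool 1 or 2 and 3 without saline pool 3. Ucp2, a carrier of the inner mitochondrial membrane, was at 34.7, 34.2 and 30.4 CPM and 55.4, 49.3, 48.2 and 45.3 CPM. Its groups were far apart, and it rose by 0.58 (SE 0.079, adjusted p = 0.000944). Angptl4, a secreted inhibitor of lipoprotein lipase, rose by 0.54 (SE 0.1, adjusted p = 0.00752), a call lost without saline pool 2, and Cpt2, the inner carnitine acyltransferase, by 0.73 (SE 0.15, adjusted p = 0.0118), lost without saline pool 1 or 2. The gene that fell was Pdk4, a kinase that restrains pyruvate oxidation, at 32.6, 27.8 and 30.8 CPM and 20.3, 20.4, 21.8 and 18.7 CPM. It fell by 0.58 (SE 0.13, adjusted p = 0.0151), a call lost without saline pool 1 or 3.

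**Figure D2:**
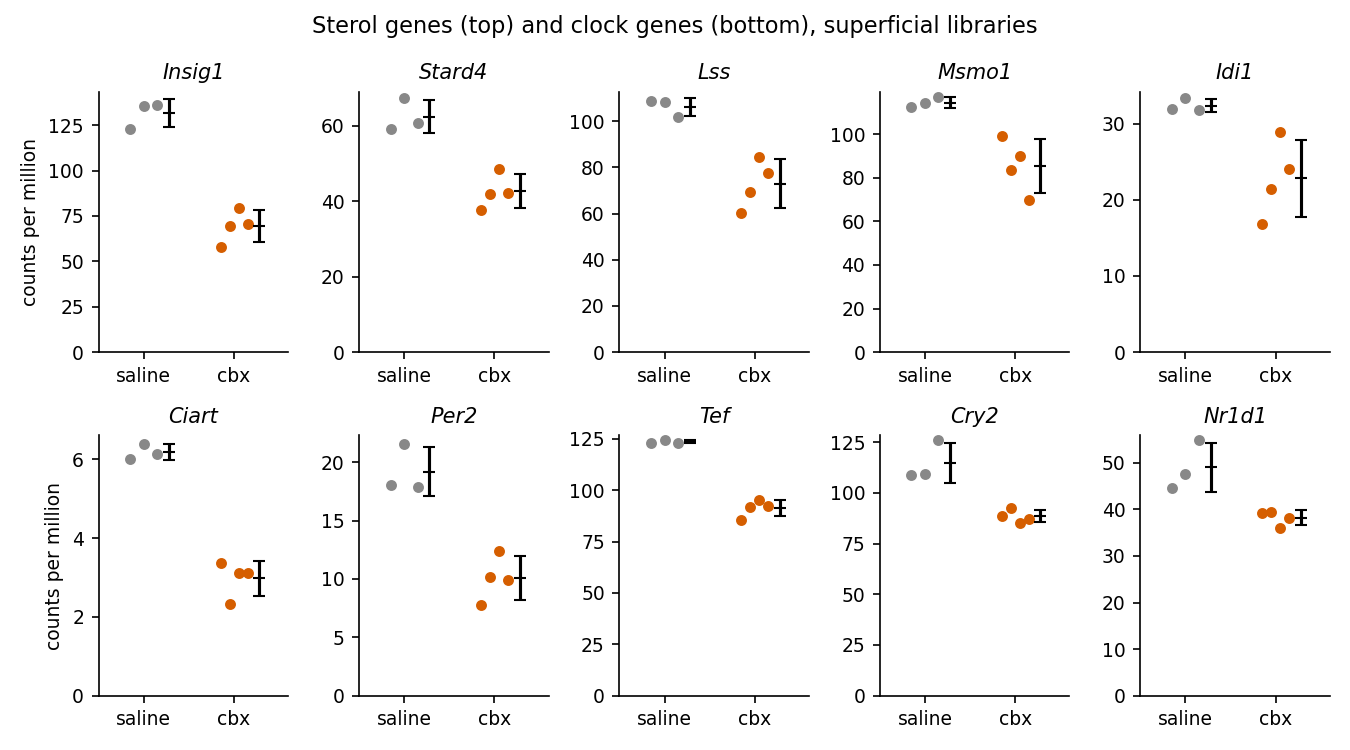
Levels in CPM of 5 sterol genes (top) and 5 clock genes (bottom) in the 3 saline (grey) and 4 cbx (orange) libraries, with the mean and SD beside the points and every axis from 0. In all 10 panels each cbx library lies below each saline library.

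Of the classes described, the clock had the highest share of falls. Of 21 clock genes tested, 9 fell and 0 rose, with a median of -0.27 (-0.29 to -0.22 with 1 library left out). The count was 4 without saline pool 2 or saline pool 3 and 7 to 10 in the other 5 fits. With the superficial libraries alone it was 4, and without saline pool 1 and cbx pool 4 also 4. Among the repressors, Ciart, which binds BMAL1 and silences it, was at 6.00, 6.40 and 6.14 CPM and 3.36, 2.33, 3.10 and 3.12 CPM. All cbx pools lay far below the level of the saline pools, and Ciart fell by 1.05 (SE 0.16, adjusted p = 0.00251). Per2 went from 18.1, 21.6 and 17.9 CPM to 7.78, 10.2, 12.4 and 9.92 CPM and fell by 0.93 (SE 0.15, adjusted p = 0.00334), with cbx pool 1 lowest and no overlap. Cry2, the partner of the PER proteins, went from 109, 109 and 126 CPM to 88.6, 92.5, 85.4 and 87.3 CPM and fell by 0.38 (SE 0.063, adjusted p = 0.00379). Saline pool 3 was the highest for Cry2, and the cbx pools were close together below the others.

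Tef, a leucine-zipper factor driven by the clock, was nearly level across saline pools at 123, 125 and 123 CPM and lower in every cbx pool at 85.7, 91.8, 95.4 and 92.3 CPM. It fell by 0.44 (SE 0.062, adjusted p = 0.00118), with 0.41 to 0.46 over the fits with 1 library left out. Cry1, the repressor, fell by 0.36 (SE 0.084, adjusted p = 0.0229), and the nuclear receptors Nr1d1 and Nr1d2, which repress Arntl, by 0.36 (SE 0.077, adjusted p = 0.0138) and 0.30 (SE 0.068, adjusted p = 0.0177). These 3 calls were lost without saline pool 2 or 3. Arntl itself fell by 0.27 (SE 0.067, adjusted p = 0.0275), a call kept in 3 of 7 fits, and Bhlhe40, a repressor of the same loop, by 0.37 (SE 0.081, adjusted p = 0.0163), kept in 4. Clock differed by -0.31 (adjusted p = 0.0786), Per1 by -0.25 (adjusted p = 0.0802), Per3 by -0.17 (adjusted p = 0.463), Dbp by -0.23 (adjusted p = 0.166) and Hlf by -0.05 (adjusted p = 0.794), and none passed. The sources used here do not give the hour at which each pool was collected.

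Every call among the microglial identity genes after cbx was a rise. Microglia are the resident macrophages of the brain, which prune synapses and clear dying cells in the first postnatal weeks. In bulk tissue, more cells of a type cannot be told apart from more RNA per cell, here and in every cell-class result that follows. A rise passed in 12 of 22 microglial identity genes and a fall in 0. Their median was 0.40 (0.36 to 0.48 with 1 library left out), and 21 differences were positive. The count was 9, 4 and 3 without saline pools 1, 2 and 3. With the superficial libraries alone it was 4, and without saline pool 1 and cbx pool 4 it was 3. Summed over the 22 genes the level was 449, 423 and 408 CPM after saline and 508, 526, 553 and 508 CPM after cbx. Every cbx pool was above every saline pool, and the cbx pools differed little among themselves. Of the markers that define the class, P2ry12, the receptor by which microglia sense nucleotides, was at 22.4, 23.4 and 21.7 CPM and 30.7, 30.3, 27.2 and 28.6 CPM and rose by 0.37 (SE 0.075, adjusted p = 0.0109), a call lost without saline pool 3. P2ry13, a related receptor, was at 5.597, 4.77 and 4.45 CPM and 9.64, 10.4, 8.42 and 6.44 CPM and rose by 0.82 (SE 0.15, adjusted p = 0.00605). Gpr34, a receptor for lysophosphatidylserine on the X chromosome, was at 5.80, 6.27 and 6.85 CPM and 10.9, 10.7, 10.4 and 8.46 CPM and rose by 0.68 (SE 0.12, adjusted p = 0.00544). In both the groups were apart, with cbx pool 4 the lowest of its group.

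C1qa, a chain of the complement protein C1q that microglia make and that tags synapses for removal, had the smallest p-value of the immune genes. It was at 27.2, 23.2 and 26.8 CPM after saline and 43.6, 38.8, 41.5 and 36.1 CPM after cbx, with a wide gap between the groups. C1qa rose by 0.64 (SE 0.081, adjusted p = 0.000686), by 0.57 to 0.68 with 1 library left out. C1qc, another chain of the same protein, was at 25.6, 20.9 and 24.0 CPM and 34.8, 30.6, 33.7 and 33.0 CPM and rose by 0.49 (SE 0.092, adjusted p = 0.00686), a call lost without saline pool 2. Over the complement class, 5 of 28 genes rose and 1, Csmd3, fell, a call kept in 1 of 7 fits. The count of 6 was 1 without saline pool 2, 2 without saline pool 3 and 4 to 6 in the other fits. C5ar1, the receptor for the C5a fragment, was low, at 0.714, 0.697 and 0.395 CPM and 2.87, 1.42, 1.54 and 2.73 CPM, and rose by 1.83 (SE 0.39, adjusted p = 0.0139), lost without saline pool 2 or 3. Serping1, the inhibitor of C1, rose by 0.79 (SE 0.18, adjusted p = 0.0177), lost without any one of the saline pools.

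The Fc receptor and ITAM class, through which macrophages read antibodies and debris, had 4 rises of 27, 0 falls and positive differences in all 27, with a median of 0.45. Its count was 0 without saline pool 2 or 3 and 2 without saline pool 1. It was also 0 with the superficial libraries alone and without saline pool 1 and cbx pool 4. Tyrobp, the adaptor that carries the ITAM, was at 10.1, 10.1 and 9.66 CPM and 16.0, 14.2, 11.97 and 14.2 CPM and rose by 0.50 (SE 0.11, adjusted p = 0.0125). Fcgr3, an IgG receptor, rose by 0.65 (SE 0.14, adjusted p = 0.0151). Both lost their call without saline pool 2 or 3. Ncf1, a subunit of the phagocyte oxidase and a core gene, was at 3.23, 3.90 and 3.16 CPM and 5.86, 5.78, 6.46 and 5.93 CPM, with all cbx pools above all saline pools, and rose by 0.81 (SE 0.16, adjusted p = 0.0085). By edgeR no gene passed among 30 interferon response genes, with a median of 0.37, where 7 had an unadjusted p under 0.05, DESeq2 called 2 and limma-voom 1. No gene passed either among 28 genes of Toll-like receptors and NF-kB (6 under 0.05 unadjusted, 2 by DESeq2, 0 by limma-voom). The 19 genes of MHC class I and 9 of MHC class II had 7 and 2 at an unadjusted p under 0.05 and no call by any of the 3 tools.

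The marker lists of other myeloid cells and of blood had positive medians too. The 19 markers of border macrophages, which live in the meninges and around vessels, had 2 rises and 19 positive differences, with a median of 0.90. Summed, they were at 254, 221 and 196 CPM after saline and 250.5, 238, 347 and 412 CPM after cbx, so cbx pools 3 and 4 were highest and cbx pools 1 and 2 lay within the saline range. Both calls, Msr1 and Cd209f, rested on 0.487 and 1.17 CPM after saline and were kept in 2 and 1 of 7 fits. Of 15 neutrophil and monocyte genes 1 rose, S100a9, at 0.800, 0.103 and 0.553 CPM and 3.60, 1.25, 2.31 and 1.97 CPM, a call kept in 1 of 7 fits. The 9 tested red blood cell genes had a median of 0.73 with 1 call, and the sum over 12 was 351, 282 and 382 CPM after saline and 551, 380.3, 515 and 498 CPM after cbx, with saline pool 3 just above cbx pool 2. The 10 lymphocyte genes tested had no call by edgeR, DESeq2 or limma-voom, and 3 at an unadjusted p under 0.05. The part of these cells in the microglial and complement values was not tested.

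Calls among meningeal genes were rises as well, with more spread between pools. The meninges are the membranes that cover the brain, and their fibroblasts and the arachnoid barrier cells lie directly on the superficial colliculus. A rise passed the test in 9 of 29 meningeal fibroblast genes and a fall in 0. The median was 0.81 (0.49 to 0.93 with 1 library left out), and 28 of the differences were positive. No gene of the class was a core gene. The count was 0 without saline pool 2 or saline pool 3, 4 without saline pool 1, 5 without cbx pool 3 or 4 and 15 without cbx pool 2. With the superficial libraries alone it was 1, and without saline pool 1 and cbx pool 4 it was 3. The summed level was 3080, 2734 and 2676 CPM after saline and 4313, 3227, 4862 and 5940 CPM after cbx. The groups did not overlap, but cbx pool 2 stood close to the saline pools and cbx pool 4 at the top. The 4 meningeal markers Foxc1, Col1a1, Slc6a13 and Slc22a6 did overlap in their sum. They were at 301, 237 and 202 CPM after saline and 296, 282, 408 and 547 CPM after cbx. Slc22a6, an organic anion transporter, was at 21.7, 15.7 and 14.8 CPM and 33.8, 21.02, 39.6 and 53.0 CPM, so that saline pool 1 exceeded cbx pool 2. It rose by 1.08 (SE 0.23, adjusted p = 0.0229). Pcolce, which aids the processing of procollagen, rose by 0.89 (SE 0.18, adjusted p = 0.0123). Islr, a secreted leucine-rich protein of fibroblasts, rose by 0.42 (SE 0.097, adjusted p = 0.0214). These 3 calls were lost without saline pool 2 or 3.

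**Figure D3:**
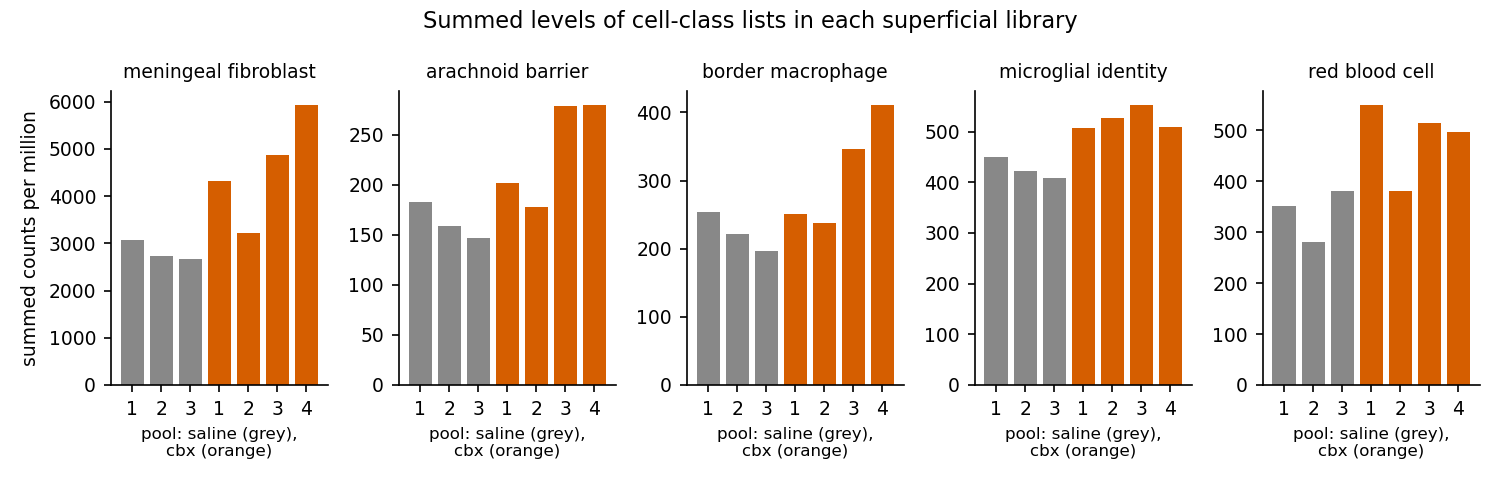
Summed CPM of 5 cell-class lists in each superficial library, saline in grey and cbx in orange, with axes from 0. The microglial sum is similar across cbx pools, while the meningeal, arachnoid and border macrophage sums are highest in cbx pools 3 and 4.

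The arachnoid list had 3 rises among 10 genes and a median of 1.43, with a count of 0 without saline pool 2 or 3, 1 without saline pool 1, cbx pool 3 or cbx pool 4, and 5 without cbx pool 2. Cldn11, a claudin of arachnoid barrier cells and also of myelin, was at 13.1, 8.10 and 5.50 CPM and 20.5, 15.3, 35.9 and 29.2 CPM and rose by 1.51 (SE 0.32, adjusted p = 0.0229), lost without saline pool 2 or 3. Of 33 small leucine-rich proteoglycans and elastic matrix genes, 7 rose and 0 fell. The count was 1 without saline pool 2, 2 without saline pool 3, 3 without cbx pool 4 and 5 to 9 in the other fits. Prelp, a proteoglycan that anchors basement membranes, was the core gene among them, at 3.63, 3.30 and 2.13 CPM and 6.93, 4.98, 7.88 and 8.92 CPM. All cbx pools were higher than all saline pools, and Prelp rose by 1.25 (SE 0.22, adjusted p = 0.00448). Efemp1, a fibulin, rose by 1.32 (SE 0.27, adjusted p = 0.011), lost without saline pool 2 or 3. No gene passed among 39 collagens in edgeR, with 7 at an unadjusted p under 0.05, 1 call by DESeq2 and 0 by limma-voom. Retinoic acid genes, several of which the meninges express, had 3 rises of 18 and 0 falls, with 1 rise without saline pool 2 or 3. Aldh1a1, which makes retinoic acid, was at 17.2, 13.6 and 10.96 CPM and 21.3, 20.5, 30.0 and 43.7 CPM and rose by 1.06 (SE 0.25, adjusted p = 0.0302), lost without saline pool 2 or 3. Crabp2, the carrier of retinoic acid, rose by 1.93 (SE 0.48, adjusted p = 0.0459), a call kept in 1 of 7 fits.

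Several core rises outside the lists followed a similar order of the cbx pools. Anxa2 and Anxa5, calcium-dependent membrane binders, were at 26.8, 22.9 and 21.1 CPM and 22.8, 20.2 and 18.5 CPM after saline. After cbx they were at 40.0, 29.7, 45.1 and 48.7 CPM and 36.5, 25.3, 38.6 and 46.0 CPM, with cbx pool 2 lowest and cbx pool 4 highest in both. They rose by 0.79 (SE 0.13, adjusted p = 0.00394) and 0.84 (SE 0.14, adjusted p = 0.00448). Emp3, a small membrane protein, rose by 1.06, Fibin, a secreted protein, by 1.11, and A4galt, which makes the glycolipid Gb3, by 1.29, with the same pool lowest and the same pool highest. Plau, the urokinase protease, was at 1.37, 1.62 and 1.90 CPM and 4.15, 2.93, 4.30 and 4.22 CPM and rose by 1.25 (SE 0.22, adjusted p = 0.00472), with cbx pool 2 apart from the others. The meningeal sum was also lowest in cbx pool 2 and highest in cbx pool 4, while Plau was highest in cbx pool 3. From saline pool 1 to saline pool 3 the meningeal sum decreased, as did Anxa2, Anxa5, Emp3 and A4galt. Fibin and Plau increased over the same pools. The part of meningeal cells in these rises was not tested.

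Most differences in genes of neuronal contact were small and negative, and few passed the test. The cell-adhesion molecules that organise synapses, neurexins, neuroligins, contactins and their partners, had 8 falls and 1 rise among 65 genes, with a median of -0.16 and 53 negative differences. The count of 9 was 1 without saline pool 2, 2 without saline pool 1 and 4 to 11 in the others. With the superficial libraries alone it was 1, and without saline pool 1 and cbx pool 4 also 1. Cadm2, an adhesion molecule of axons, was the core gene, at 351, 323 and 332 CPM and 238, 263, 271 and 258 CPM. Its groups were well apart and it fell by 0.38 (SE 0.069, adjusted p = 0.00605). Cntn3, a contactin, fell by 0.47 (SE 0.096, adjusted p = 0.0115), lost without saline pool 2, and Negr1, a neuronal growth regulator, by 0.27 (SE 0.056, adjusted p = 0.0118), lost without saline pool 1 or 2. The 1 rise was Cbln2, a secreted organiser that is also a marker of superficial neurons, at 27.5, 23.5 and 31.1 CPM and 41.5, 38.4, 39.6 and 30.4 CPM. Saline pool 3 overlapped cbx pool 4, and the rise of 0.45 (SE 0.11, adjusted p = 0.0264) was kept in 2 of 7 fits.

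Of 41 classical cadherins and non-clustered protocadherins, 6 fell and 1 rose, with a median of -0.17. The 7 calls became 1 without saline pool 2, 2 without saline pool 1, 3 without saline pool 3 and 4 without cbx pool 4. They became 0 with the superficial libraries alone and without saline pool 1 and cbx pool 4. Pcdh9, the core gene, was at 149, 130.5 and 135 CPM and 80.3, 100.4, 114 and 104 CPM, lowest in cbx pool 1, and fell by 0.47 (SE 0.088, adjusted p = 0.00698). Cdh6, a cadherin of retinorecipient circuits, was at 97.3, 87.8 and 80.0 CPM and 57.4, 64.5, 68.8 and 73.2 CPM and fell by 0.42 (SE 0.084, adjusted p = 0.01), lost without saline pool 1 or 2. The rise was Cdh3, by 1.70 (adjusted p = 0.0244), kept in 4 of 7 fits and with a mean under 1 CPM. The 55 clustered protocadherins, which give neurons surface identities, had 2 falls, 49 negative differences and a median of -0.27, with 0 calls without saline pool 1, saline pool 3 or cbx pool 1 and 4 without cbx pool 3. They share exons and closely related sequence, so reads may have been split among them.

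Most calls among transmitter receptors and channels were falls as well. Of 35 ionotropic glutamate receptor genes and partners, 4 fell and 0 rose, with 1 call without saline pool 1, 2 without saline pool 2 or 3 or cbx pool 1 or 4, and 3 in the others. With the superficial libraries alone there was 1 call, and without saline pool 1 and cbx pool 4 there were 0. Grid1, a delta receptor subunit that binds cerebellins, was at 139, 124 and 136 CPM and 106, 102, 114 and 107 CPM. Its groups did not overlap, and it fell by 0.31 (SE 0.064, adjusted p = 0.0118), lost without saline pool 1 or 3. The receptor subunit Grin2a fell by 0.40 (SE 0.11, adjusted p = 0.048), kept in 1 of 7 fits. Of 31 GABA and glycine genes, 5 fell and 0 rose. The count was 0 without saline pool 2, 1 without saline pool 3, 2 without saline pool 1 or cbx pool 4, 3 without cbx pool 1 or 2 and 7 without cbx pool 3. It was 0 with the superficial libraries alone and without saline pool 1 and cbx pool 4. Gad2, which makes GABA, was at 145, 147 and 146 CPM, almost level, and 115, 125, 108 and 114 CPM. It fell by 0.34 (SE 0.064, adjusted p = 0.00774), lost without saline pool 2. Gabrg3, which encodes part of a GABA-A receptor, fell by 0.62 (SE 0.14, adjusted p = 0.0214), lost without any one saline pool. Of 53 voltage-gated potassium channel genes, 5 fell and 1 rose, and the 6 calls became 2 without any one saline pool and 4 to 9 without a cbx pool. They became 0 with the superficial libraries alone and without saline pool 1 and cbx pool 4. Kcnq5, a channel of the M-current, was at 36.2, 34.1 and 38.0 CPM and 20.1, 25.4, 28.7 and 25.6 CPM and fell by 0.53 (SE 0.1, adjusted p = 0.00852) as a core gene. Kcng1, a modifying subunit, was the rise, by 0.63 (SE 0.14, adjusted p = 0.0184), lost without saline pool 1 or 3.

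Vgf, a secreted peptide precursor that neuronal activity and neurotrophins induce, fell in the superficial layers. It was at 123, 126 and 131 CPM after saline and 91.4, 93.8, 90.2 and 78.8 CPM after cbx, with a clear gap and cbx pool 4 lowest, and fell by 0.52 (SE 0.091, adjusted p = 0.00448). In the deep layers of the same treatments Vgf differed by 0.03 (adjusted p = 0.935), and the difference between the layers did not pass (adjusted p = 0.258). Of 29 activity-regulated genes, 2 fell and 1 rose, with 1 call without any one saline pool and 2 without cbx pool 2. Over the class, 20 differences were positive and 9 negative, with a median of 0.08. The other fall was Nptx2, a pentraxin that gathers AMPA receptors, by 0.29 (SE 0.08, adjusted p = 0.0439), kept in 2 of 7 fits, and the rise Btg2, an early-response antiproliferative gene, by 0.45 (SE 0.11, adjusted p = 0.0275), kept in 3. The early genes with the fastest response to activity gave no call. Fos was at 4.57, 4.39 and 4.82 CPM and 6.87, 5.80, 4.99 and 5.85 CPM, all cbx pools above the saline pools, a difference of 0.35 (SE 0.14, adjusted p = 0.163). Npas4 was at 4.77, 3.999 and 3.90 CPM and 7.63, 5.04, 4.89 and 6.72 CPM, again with the cbx pools above, and differed by 0.52 (SE 0.19, adjusted p = 0.113). In the deep layers Npas4 rose by 0.79 (adjusted p = 0.0353), and its difference between the layers did not pass (adjusted p = 0.813). Arc was at 2.57, 1.52 and 2.50 CPM and 2.65, 2.36, 2.19 and 2.12 CPM, with overlapping groups and a difference of 0.08 (SE 0.19, adjusted p = 0.852).

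Axon guidance was described by 2 classes. No gene passed among 22 Eph receptors and ephrins, the labels by which retinal axons find their place, with a median of -0.02. At an unadjusted p under 0.05 there were 4, and DESeq2 and limma-voom called 0. The abundant members Ephb1 and Efnb3 differed by -0.15 (adjusted p = 0.286) and 0.09 (adjusted p = 0.492). Of 54 semaphorins, slits, netrins and their receptors, 5 fell and 1 rose, with 0 calls without saline pool 2, 1 without saline pool 3, 3 without saline pool 1 or cbx pool 2 and 9 without cbx pool 3. With the superficial libraries alone, and without saline pool 1 and cbx pool 4, there were 0 calls. Sema4d, a membrane semaphorin, was at 47.0, 50.0 and 52.2 CPM and 37.7, 41.8, 42.2 and 40.0 CPM and fell by 0.30 (SE 0.068, adjusted p = 0.0186), lost without saline pool 2 or 3. Plxnc1, a semaphorin receptor, was the rise, by 0.36 (SE 0.093, adjusted p = 0.036), kept in 2 of 7 fits. The 42 genes of the axon cytoskeleton and transport had no call by edgeR, DESeq2 or limma-voom, and 4 at an unadjusted p under 0.05. Among midbrain factors Pou4f2 (Brn3b), a transcription factor of retinal ganglion cells that some collicular neurons also express, was at 9.71, 6.73 and 10.01 CPM and 13.4, 17.4, 17.7 and 12.1 CPM. The groups were apart, with cbx pools 2 and 3 highest, and Pou4f2 rose by 0.78 (SE 0.14, adjusted p = 0.00607) as a core gene. Of the 24 midbrain factors 2 rose and 1 fell, with 1 call without saline pool 2 or 3, and their summed level overlapped between the groups.

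Carbenoxolone is known to block the channels that connexins and pannexins form. Of 14 such genes tested, 2 rose (14.29%, against 2.68% over all genes tested) and 0 fell. Gjb2 was at 16.9, 11.7 and 9.59 CPM and 24.6, 19.4, 32.5 and 37.4 CPM and rose by 1.17 (SE 0.25, adjusted p = 0.0233), and Gjb6 was at 13.7, 10.4 and 7.79 CPM and 19.0, 14.9, 27.0 and 35.1 CPM and rose by 1.18 (SE 0.25, adjusted p = 0.0213). In both, cbx pool 4 was highest and cbx pool 2 lowest of the cbx pools, as in the meningeal sum, and both calls were lost without saline pool 2 or 3. These connexins are found in meningeal cells and astrocytes, and Gjb2 is in the meningeal list. Gja1, the main astrocytic connexin, was at 285, 266 and 243 CPM and 299, 272, 367 and 351 CPM with overlapping groups, a difference of 0.28 (SE 0.1, adjusted p = 0.128). Gjd2, the main neuronal connexin, differed by 0.06 (SE 0.076, adjusted p = 0.702). Neither passed.

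None of the 8 genes of the glucocorticoid receptor and 11-beta-HSD class passed in edgeR, DESeq2 or limma-voom, and 3 had an unadjusted p under 0.05. Without cbx pool 3 or cbx pool 4, 1 passed. Hsd11b1, the reductase that carbenoxolone inhibits as an enzyme, was at 5.25, 4.54 and 4.92 CPM and 4.52, 4.55, 5.17 and 4.32 CPM. Its groups overlapped, with a difference of -0.08 (SE 0.12, adjusted p = 0.76). Nr3c1, the glucocorticoid receptor, was at 64.6, 55.1 and 52.4 CPM and 41.2, 47.3, 62.4 and 56.4 CPM with a difference of -0.14 (SE 0.12, adjusted p = 0.547), again overlapping. Of 19 glucocorticoid-responsive genes, 1 passed, higher, and the median was 0.05. The class had 1 call without cbx pool 2 and 0 in the other 6 fits.

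Protein folding and growth genes were higher in small numbers. Of 29 ER chaperones and genes of the unfolded protein response, 5 rose and 0 fell, with a count of 1 without saline pool 2 and 3 without saline pool 3. Pdia4, a disulfide isomerase of the endoplasmic reticulum, was at 41.8, 38.7 and 40.1 CPM and 60.2, 57.2, 58.8 and 55.2 CPM. The pools within each group were close and the groups far apart, and Pdia4 rose by 0.53 (SE 0.067, adjusted p = 0.000686). Xbp1, the transcription factor of the response, was at 40.8, 37.2 and 44.1 CPM and 68.5, 60.1, 53.8 and 51.2 CPM and rose by 0.52 (SE 0.096, adjusted p = 0.00638), lost without saline pool 2. Sdf2l1, a chaperone of the same compartment, rose by 0.83 (SE 0.17, adjusted p = 0.0118), also lost without saline pool 2. Chordc1, a cofactor of the cytosolic chaperone HSP90, was at 27.4, 27.4 and 24.7 CPM and 41.6, 45.6, 36.6 and 39.2 CPM, with no overlap, and rose by 0.62 (SE 0.082, adjusted p = 0.000901).

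Of 40 genes of the cell cycle, 4 rose and 0 fell, with 2 calls without saline pool 2, saline pool 3 or cbx pool 2. The core genes were the D-type cyclins Ccnd3, at 22.2, 23.3 and 21.1 CPM and 36.5, 28.8, 38.2 and 43.7 CPM, and Ccnd2, at 82.9, 76.3 and 76.1 CPM and 105, 97.3, 113 and 114 CPM. D-type cyclins start the passage from rest to DNA synthesis. Ccnd3 rose by 0.73 (SE 0.12, adjusted p = 0.00334) and Ccnd2 by 0.45 (SE 0.081, adjusted p = 0.00554), both with separate groups. Of the cbx pools, cbx pool 2 was lowest and cbx pool 4 highest in both genes, as in the meningeal sum, whose part was not tested. Ube2c, a ubiquitin carrier of mitosis, rose by 0.45 (SE 0.12, adjusted p = 0.039), kept in 1 of 7 fits. Of 77 mitochondrial ribosomal proteins 5 rose (6.494%) and 0 fell, and 66 differences were positive. The share called higher was 2.68% over all genes tested and 6.02% in the shortest group by transcript length given below. The count was 0 without saline pool 2, 2 without saline pool 1, saline pool 3 or cbx pool 1, 3 without cbx pool 2 and 9 without cbx pool 4. Mrpl36 rose by 0.58 (SE 0.11, adjusted p = 0.00806) and Mrpl24 by 0.47 (SE 0.092, adjusted p = 0.00874), both lost without saline pool 2. By edgeR none of 82 nuclear-encoded respiratory chain genes passed, with 6 at an unadjusted p under 0.05 and 1 call by DESeq2. None of 39 proteasome subunits passed in any of the 3 tools, with 0 at an unadjusted p under 0.05.

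**Figure D4:**
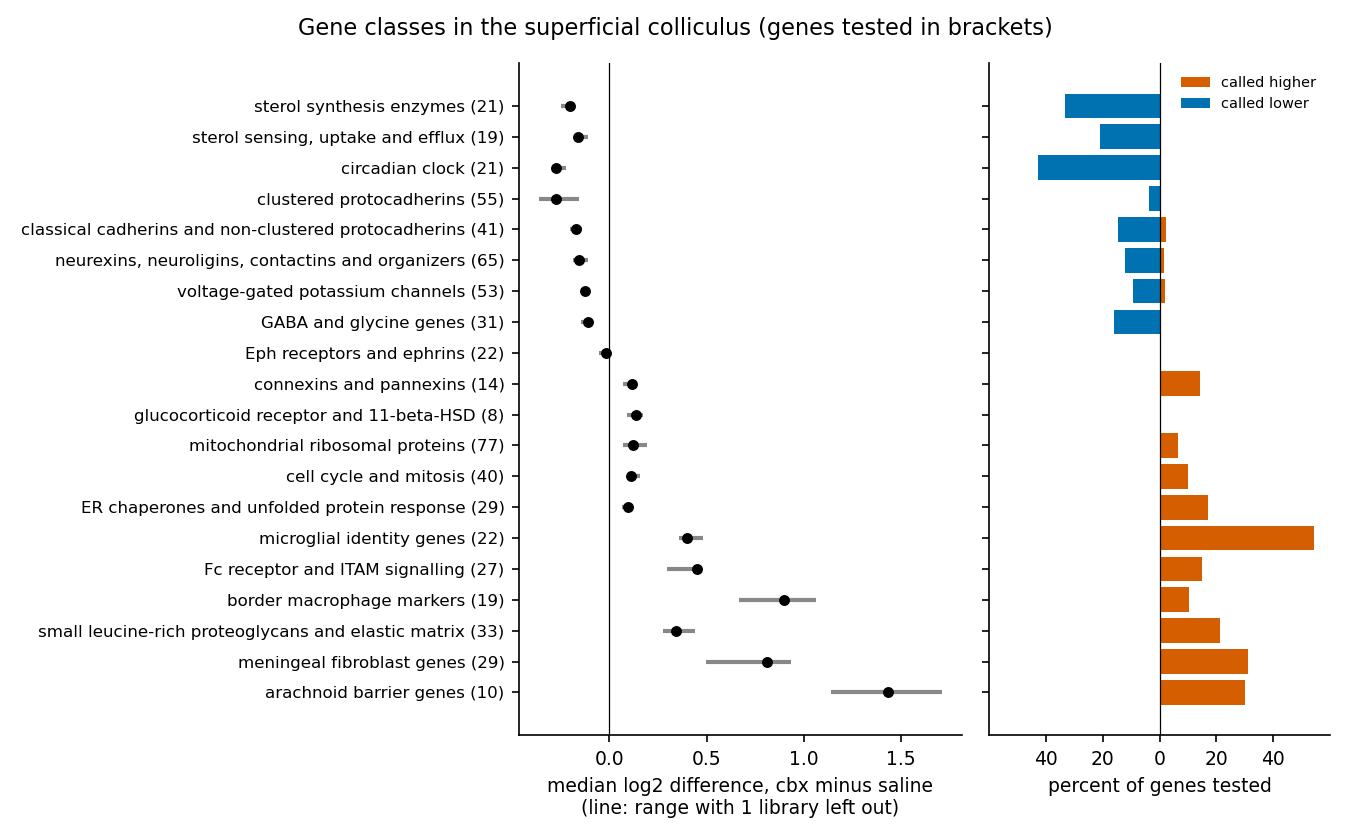
For 20 of the classes described, the left panel gives the median log2 difference (point) with its range over the 7 fits that leave out a library (line), and the right panel the share of genes tested that were called higher (orange) or lower (blue). Sterol, clock and neuronal adhesion classes lie below 0 and microglial, meningeal and arachnoid classes above it, the last with wide ranges.

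The genes with the smallest p-values that rose belong to no one class. Top1, the topoisomerase that relieves twisting of DNA during transcription, was at 65.6, 63.0 and 63.0 CPM after saline and 87.5, 92.6, 87.8 and 90.6 CPM after cbx. The spread within each group was a small part of the gap, and Top1 rose by 0.49 (SE 0.057, adjusted p = 0.000372). Nxn, nucleoredoxin, a redox protein of the Wnt pathway, was at 21.4, 21.9 and 20.5 CPM and 34.9, 32.5, 36.6 and 35.3 CPM and rose by 0.71 (SE 0.082, adjusted p = 0.000372). Isyna1, which makes inositol phosphate from glucose phosphate, was at 56.5, 54.9 and 54.6 CPM and 94.5, 72.7, 83.4 and 92.8 CPM and rose by 0.63 (SE 0.082, adjusted p = 0.000694). In these 3 genes every cbx pool exceeded every saline pool, and for Nxn and Top1 the saline pools were nearly level. Thnsl1, a threonine synthase homologue, rose by 0.68 (SE 0.091), with 14.3 CPM or more in each cbx pool and 10.1 CPM or less in each saline pool. These genes, Pdia4, Chordc1, Ucp2, C1qa and Insig1 hold 9 of the 10 smallest p-values among the 135 genes that passed edgeR with all and with the superficial libraries, DESeq2 and limma-voom.

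Among other core rises, Tmem100, a membrane protein of the BMP pathway that is listed here with oligodendrocyte precursors, was at 11.7, 9.44 and 10.3 CPM and 19.96, 19.4, 14.4 and 15.9 CPM and rose by 0.73 (SE 0.12, adjusted p = 0.00397). Fam136a, a mitochondrial protein, rose by 0.82, Dusp19, a phosphatase, by 0.92, Spice1, a centriole protein, by 0.86, Tmco6 by 0.82 and 2810006K23Rik by 0.95. Their adjusted p-values were 0.00118, 0.00351, 0.00384, 0.0034 and 0.0017. As the rule for core genes requires, each had all 4 cbx pools above all 3 saline pools.

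Among other core falls, Gm6356 was at 4.77, 5.29 and 5.48 CPM and 3.08, 1.79, 1.51 and 2.22 CPM and fell by 1.27 (SE 0.21, adjusted p = 0.00379), the deepest in the named set. Gp1ba, a receptor known from platelets, was at 4.97, 5.26 and 6.08 CPM and 2.53, 2.56, 2.41 and 2.96 CPM and fell by 1.05 (SE 0.17, adjusted p = 0.00375). Both were low genes whose groups did not overlap. Xlr3b and Armcx5, genes of the X chromosome, fell by 1.00 (SE 0.17, adjusted p = 0.00448) and 0.77 (SE 0.13, adjusted p = 0.00367). Without saline pool 1 and cbx pool 4, Armcx5 passed (adjusted p = 0.0388) and Xlr3b did not (adjusted p = 0.0565). Atad5, which unloads the sliding clamp after DNA synthesis, fell by 0.61 (SE 0.11, adjusted p = 0.00609) and the uncharacterised 2810459M11Rik by 0.53 (SE 0.088, adjusted p = 0.00379). Of the abundant core genes, Megf11, a cell-surface protein that spaces retinal neurons, was at 144, 139 and 151 CPM and 102, 119.7, 112 and 113 CPM and fell by 0.37 (SE 0.063, adjusted p = 0.00379). Cdhr1, a cadherin-related protein known from photoreceptors, was at 144, 128 and 131 CPM and 95.8, 106, 105 and 102 CPM and fell by 0.40 (SE 0.074, adjusted p = 0.00686). The groups did not overlap in either.

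Direction followed transcript length. Protein-coding genes with a mean of at least 1 CPM were divided into 4 groups of near-equal size by the length of their transcripts. In the shortest group, up to 2359 bases, 6.02% were called higher and 0.438% lower, with a median of 0.11. In the longest, over 4985 bases, 1.72% were called higher and 3.36% lower, with a median of -0.08. Direction followed level too: of genes at 5 to 20 CPM 5.69% were called higher and 0.934% lower, and of genes at 100 CPM or more 1.01% and 3.28%. With the length and GC trend removed, 12 sterol synthesis enzymes and 10 clock genes were called lower, 12 microglial genes higher and 6 meningeal genes higher, against 7, 9, 12 and 9. With that trend removed, the median went from -0.16 to -0.08 for the neurexin class and from -0.17 to -0.12 for classical cadherins and non-clustered protocadherins. It went from -0.13 to -0.10 for potassium channels and from -0.11 to -0.07 for ionotropic glutamate receptor genes. GABA and glycine genes moved from -0.11 to -0.12 and clustered protocadherins from -0.27 to -0.26. Mitochondrial ribosomal proteins moved from 0.12 to 0.06, with 3 calls against 5. The part of transcript length in the falls of adhesion and channel genes, many of which are long, was not tested beyond these values. Cbx pool 1 stood apart in some class sums. Cytoplasmic ribosomal proteins were at 29570 CPM there and 21790 to 24950 CPM elsewhere. Kinesins were at 4162 against 5095 to 6371 CPM, and clustered protocadherins at 515 against 665 to 860 CPM. The part of cbx pool 1 in the trend with length was not tested.

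Over all 95 classes, 34 had calls only higher, 21 only lower, 21 both and 19 none. The 78 classes written as symbol lists covered 2035 tested genes and 198 of the 880 calls, so 682 calls lay outside them. With the superficial libraries alone, 4 complement, 4 fatty acid oxidation, 1 proteoglycan and elastic matrix and 0 arachnoid genes were called. ER chaperones then had 1 call, cell cycle genes 2 and mitochondrial ribosomal proteins 2. Classes with no call by edgeR included 28 integrins, 36 kinesins, 21 neurotrophins, GDNF ligands and receptors, 11 choroid plexus genes and 40 TRP, Piezo, ASIC and purinergic channels. At an unadjusted p under 0.05 these held 4, 3, 5, 2 and 10 genes, and DESeq2 called 1, 0, 0, 1 and 2 of them. In the 20 superficial collicular neuron genes 1 rose and 1 fell, and in the 16 pan-neuronal genes 1 rose.

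The deep layers of the same treatments had 373 called genes (1.83%), 215 higher (1.06%) and 158 lower (0.777%). The libraries of the layers carry the same pool numbers, and libraries of one number varied together (correlation of their deviations 0.184 to 0.395 in all 7 pools). The deep values are therefore given beside the superficial ones and not as a repeat of them. Insig1 differed by -0.78 in the deep layers (adjusted p = 0.000514), Tef by -0.39 (adjusted p = 0.00562), Cry2 by -0.36 (adjusted p = 0.00789), Per2 by -0.78 (adjusted p = 0.00992) and Top1 by 0.31 (adjusted p = 0.00907). C1qa differed by -0.07 there (adjusted p = 0.763) and Ucp2 by 0.01 (adjusted p = 0.986). By class, the median in the deep layers was -0.19 for sterol synthesis and -0.20 for the clock, against -0.004 for microglial identity and -0.27 for meningeal fibroblasts. A test of the difference between layers found 0 genes past an adjusted p of 0.05 in edgeR (smallest 0.105), with 1699 at an unadjusted p under 0.05, so no gene was shown to respond in one layer and not the other.

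**Figure D5:**
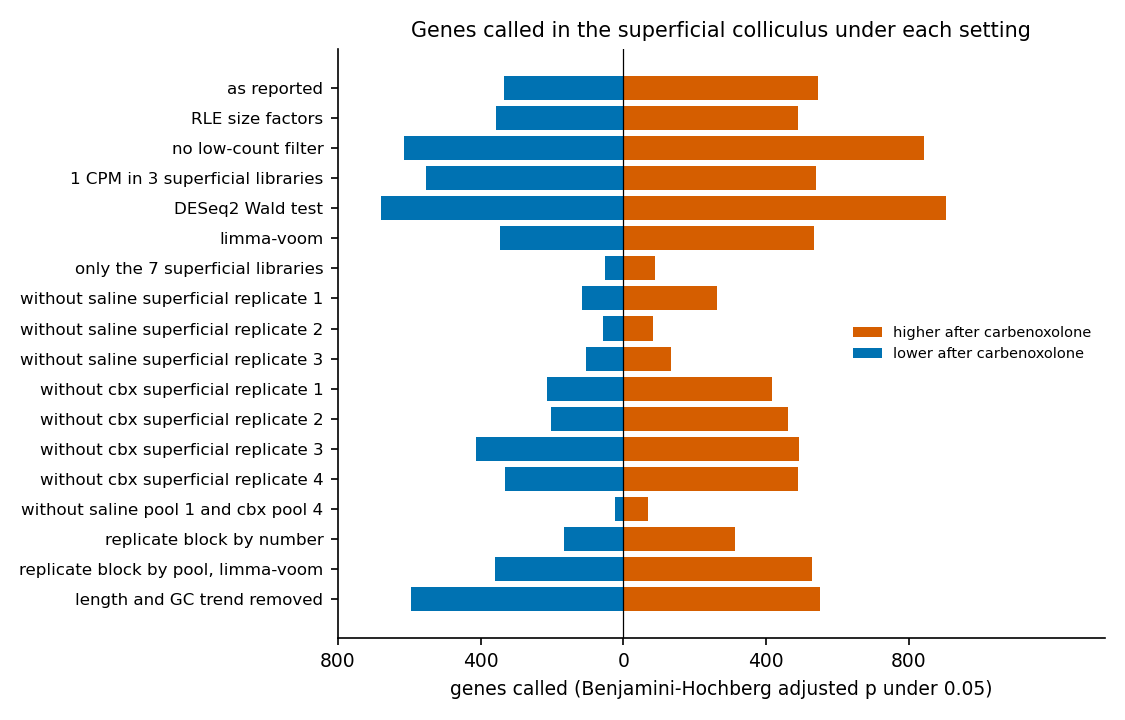
Number of genes called higher (orange, to the right) and lower (blue, to the left) after cbx in the superficial colliculus under the reported setting and 17 others. The count falls most with the superficial libraries alone, with saline pool 2 left out and without saline pool 1 and cbx pool 4, and more genes are higher than lower in 16 of the 18 bars.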

How the data were processed

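RNA-seq read counts per gene were deposited by the authors as 1 file per library, each a pool of 3 brains. They are whole raw counts, not normalized. Per the submitters' processing notes, STAR 2.7.9d, SAMtools 1.14, featureCounts, Subread 2.0.1 and FastQC 0.11.9 were used, and the builds GRCm39 and mm10 are named without roles. For the annotation and the strand setting, nothing is stated. Overlapping and antisense genes could therefore share reads. The only coordinates printed are those of the promoter windows, in GRCm38.p6. Of 55359 gene IDs, 52083 matched a symbol (98.74% of counts). No row named anything other than a gene.

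Genes were filtered by edgeR's filterByExpr on the 4 groups and scaled by TMM. The fit used edgeR 4.0.16 (R 4.3.3), quasi-likelihood with robust dispersion, over all 14 libraries and 4 group means (10 residual degrees of freedom), with Benjamini-Hochberg adjustment over 20330 genes at 0.05. Every adjusted p in the text is of this test unless another is named. CPM values are TMM-scaled. The script was tested on simulated data. Length and GC content are those of each gene's longest GENCODE M21 transcript. Promoter windows are RefSeq's for GRCm38.p6.

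Named genes were protein-coding, autosomal or X-linked genes with a mean of at least 1 CPM, without sex-marker, haemoglobin or mitochondrial genes: the 15 largest rises and falls and the 10 most abundant among core genes, up to 4 members of each class with the smallest p, and the 10 smallest p-values among genes that passed all tools. Ephb1 and Efnb3 were named as the most abundant members of a class with no call. Members were also named for their role: Hsd11b1, Nr3c1, Gja1, Gjd2, Per1, Per3, Nr1d1, Nr1d2, Dbp, Hlf, Cry1, Arntl, Clock, Fos, Arc, Npas4 and Srebf2. Fdps, Idi1, Mvd, Cdh3 and Csmd3 fall outside these rules and were chosen after their values were seen. Bhlhe40 also falls outside them. Many of the genes picked by these rules are left out of the text. Members and lists were chosen with earlier results of these data known. Alternatives were RLE size factors, other filters, DESeq2 1.42.0, limma-voom 3.58.1, the superficial libraries alone, each library left out, saline pool 1 and cbx pool 4 left out together, blocks by number or by pool, and a length and GC correction. The pool block rests on shared pool numbers of the layers: libraries of one number deviated together in all 7 pools (correlations 0.184 to 0.395). Replicate libraries of a group differed by more than sampling noise (chi-square per gene 9.64 to 51.8).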

Additional observations from a re-analysis of the deposited data

Results flagged for a closer look

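Among 180 named genes, 3 had 1 cbx library far from the other 3, by the size of the gap to its neighbour against the group's range (Dixon's test at 95%). Chance alone gives this in about 1 of 20 groups. Plau was at 2.93 CPM in cbx pool 2, against 4.15 to 4.3 CPM. Ache, acetylcholinesterase, was at 80.7 CPM in cbx pool 4, against 91.8 to 92.4 CPM, and its call was kept in 1 of 7 fits with 1 library left out. Cdc7, a kinase of DNA replication, was at 25.5 CPM in cbx pool 4, against 23 to 23.3 CPM, and its call was lost without saline pool 1 or 3. In Plau the outlying pool lay on the side of the saline pools.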

How the results depend on the processing

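The number of called genes, 880 (545 higher, 335 lower), was 1459 (844 and 615) without a low-count filter and 1585 (906 and 679) with DESeq2. It was 142 (90 and 52) with the superficial libraries alone and 91 (69 and 22) without saline pool 1 and cbx pool 4. A filter of 1 CPM gave 552 lower genes and the length and GC correction 595. With 1 library left out, 140 to 907 genes were called, 84 to 493 higher and 56 to 414 lower. RLE size factors gave 849, limma-voom 881 and the pool block 889, each within 1.5 times of 880. With libraries of one number as a block across treatments, 480 were called (314 and 166). Same-numbered saline and cbx pools did not deviate together (correlations -0.284, -0.019 and -0.213), so this block pairs nothing but numbers. The cause of these shifts was not tested, beyond the fewer libraries in the fits that leave some out.

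Of 171 named genes that were called, 32 kept the call in all 17 alternatives, 139 lost it in at least 1 and 0 reversed. Of 15 named genes that were not called, 4 passed in some alternative. Among these 15 the sign turned for 3. The Hsd11b1 log2 difference was 0.00496 without saline pool 1 and cbx pool 4. With 1 library left out, the Hlf log2 difference ranged from -0.136 to 0.0166 and the Arc log2 difference from -0.124 to 0.21.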
